A study of Mus musculus with 12 samples.

Results

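The cell division cycle genes described here are a list of 42 mouse genes, chosen by name for their roles in the G1, S and M phases and measured in endothelial cells of ear skin. Of the 42, 38 had a row of their own in the array table, out of 30731 genes with one. Of these 38, 31 were bright enough to be tested, among 19688 genes tested. The other 7, Top2a, Bub1, Bub1b, Kif11, Prc1, Cenpe and Cenpf, were above their array's median on fewer than 3 of the 12 arrays and are described by value only. Ccnd1, Mcm7 and Foxm1 were measured only on rows that name further genes, and no row used here named Ccnb1.

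The cells came from the ear skin of C57BL6 mice that all carried the lymphatic reporter Prox1-GFP, written Tg(Prox1-EGFP)KY221Gsat, in which green fluorescent protein marks cells that use the Prox1 gene. The design text gives an age of 5 weeks, and the sample labels say adult. Endothelial cells were enriched on PECAM1 beads, then sorted on PDPN, Prox1-GFP and LYVE1 into 4 groups with 3 biological replicates each. Lymphatic endothelial cells (LEC) were assigned to capillaries where LYVE1 was high (cap LEC), to pre-collecting vessels where it was intermediate (pre-col LEC), and to collecting vessels where it was low or absent (col LEC). Blood endothelial cells (BEC) had no PDPN, GFP or LYVE1. All 4 groups share the strain, the tissue and the reporter. The labels do not say whether a replicate is 1 mouse or a pool, so the p-values measure the spread between these samples. From each sample 500 pg of RNA was amplified. The arrays carry log2 values from robust multi-array averaging (RMA), which corrects the background, aligns the arrays to each other and summarises the probes of a gene.

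Cells enter division when D-type cyclins with CDK4 or CDK6, then E-type cyclins with CDK2, inactivate the retinoblastoma proteins and release E2F factors, which switch on the genes of DNA replication. Genes of mitosis come on later, under B-MYB and FOXM1, and CDK inhibitors such as p21 and p27 hold the cycle back. Adult endothelium is mostly out of the cycle, and lymphatic vessels of young animals still grow.

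The arrays were alike in overall brightness, with medians from 6.06 to 6.17. The summed linear level of 6 lymphatic markers was 25819 to 40644 in the LEC arrays and 1253 to 2446 in the BEC arrays, and that of 8 blood endothelial markers was at most 2885 in LEC and 26897 to 28619 in BEC. The sorted groups carried the markers of their labels. Prox1, Pdpn and Lyve1 are among the lymphatic markers and were also the basis of the sort, so this separation was partly set by it. Among the BEC arrays, BEC 1 had the highest lymphatic sum, 2446 against 1253 and 1442 on BEC 2 and BEC 3. Its Mmrn1 level was 9.84 against 6.55 and 6.52. The part of this in the differences below was not tested. Mural cell markers (pericytes and smooth muscle, 10 of 10 measured) summed to 7974 to 10249 in BEC, 1109 to 1812 in cap LEC, 1438 to 4234 in pre-col LEC and 1224 to 1320 in col LEC. The highest LEC sum was that of pre-col LEC 1. Fibroblast markers (7 of 9 measured) summed to 3766 on pre-col LEC 1 and 1980 on col LEC 1. Their sum was 876 to 1168 on the other LEC arrays and 1439 to 1993 in BEC. The part of fibroblast markers in the differences below was not tested. A level below is the log2 value of a gene's row, arrays are listed in the order of their replicate number, and levels of different genes are not compared.

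Cyclin D2 was the member that differed most clearly between the vessel types. Ccnd2 (transcript cluster TC0600003169.mm.1), a D-type cyclin that drives the G1 phase, stood at 10.07, 10.52 and 10.37 in cap LEC, 9.80, 10.02 and 9.99 in pre-col LEC, 9.17, 9.50 and 9.51 in col LEC and 10.70, 11.06 and 10.79 in BEC. BEC, cap LEC, pre-col LEC and col LEC followed each other in descending order with no overlap between neighbouring groups. The group means were 10.85 ± 0.19 in BEC, 10.32 ± 0.23 in cap LEC, 9.94 ± 0.12 in pre-col LEC and 9.39 ± 0.20 in col LEC (SD, n = 3). In col LEC the level was 1.9-fold lower than in cap LEC, a log2 difference of -0.93 ± 0.14 (moderated SE; limma, adjusted p = 0.00529). Against BEC it was 2.74-fold lower in col LEC (-1.45 ± 0.14, adjusted p = 1.18e-05, limma), 1.44-fold lower in cap LEC (-0.53 ± 0.14, adjusted p = 0.019) and 1.95-fold lower in the mean of the 3 LEC groups (-0.96 ± 0.11, adjusted p = 5.03e-05). The steps between neighbouring LEC groups did not pass by limma in the main fit: -0.38 ± 0.14 from cap LEC to pre-col LEC (adjusted p = 0.746) and -0.55 ± 0.14 from pre-col LEC to col LEC (adjusted p = 0.24). The step from pre-col LEC to col LEC passed in an alternative fit, given in the last section. In sorted bulk samples fewer cells of a kind and less RNA per cell cannot be told apart. The cap LEC to BEC call was lost without cap LEC 1 (adjusted p = 0.0713, limma) and without BEC 2 (adjusted p = 0.0655).

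Ccnd2 was also the only member called between col LEC and cap LEC, 1 of 31 tested and lower in col LEC, where 1.65% of all 19688 genes tested were called, 0.655% higher and 0.996% lower. At an unadjusted p under 0.05, 6 of the 31 members passed, beside 2063 genes, 10.5% of all genes tested. Between pre-col LEC and cap LEC no member was called by limma, against 0.0% of all genes. An unadjusted p under 0.05 was found for 2 of the 31 members, beside 1262 genes (6.41%). Between col LEC and pre-col LEC no member was called either, against 0.3% of all genes. Here 1 of the 31 members had an unadjusted p under 0.05, beside 1155 genes (5.87%). With 10 of 10 macrophage markers measured, their sum was 1841 to 2309 in cap LEC and 1214 to 1548 in col LEC, and the difference lay mostly in Mrc1, with mean log2 levels of 10.11 and 8.23, a receptor that lymphatic endothelium also expresses. The leukocyte marker Ptprc averaged 4.33 and 4.35 and Csf1r 6.31 and 6.32 in these groups. Lyz2 averaged 6.30 and 5.79, with 7.27 on cap LEC 1, and Cd68 8.27 and 8.57. Of 7 macrophage markers tested, 4 were above 0 and 3 below 0 from cap LEC to col LEC. The part of these markers in the Ccnd2 difference was not tested.

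**Figure D1:**
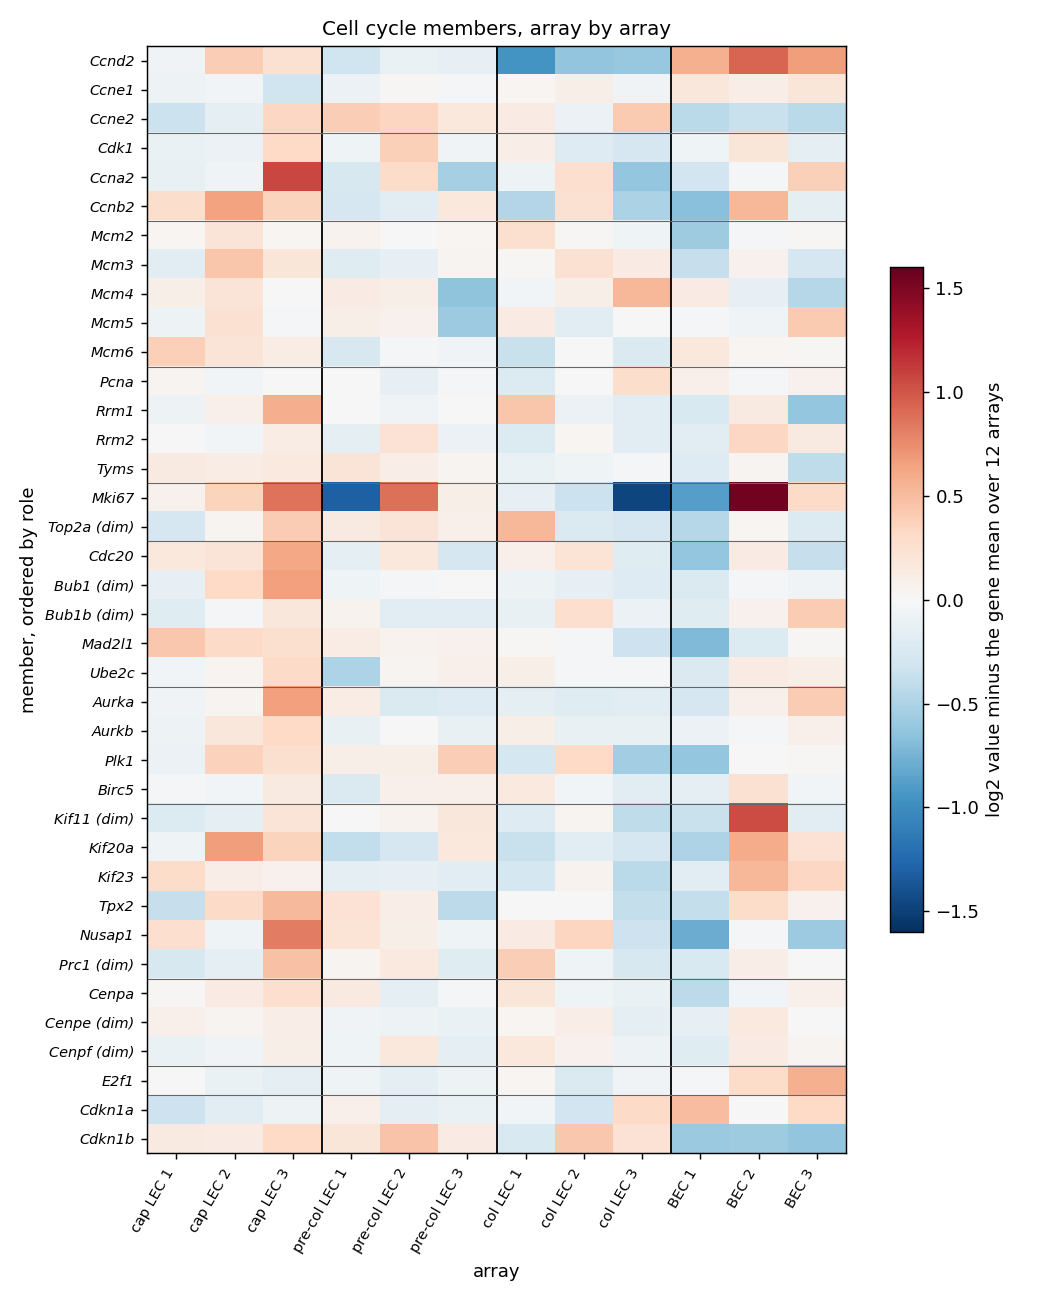
Log2 value of each of the 38 members with a row of its own minus that gene's mean over the 12 arrays, with members in rows by role, arrays in columns by group, and members too dim to test marked. Ccnd2 is highest in BEC and lowest in col LEC and Cdkn1b is lowest in BEC, while many rows of S and M phase members stand out on single arrays, such as cap LEC 3 and BEC 1.

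The E-type cyclins, which partner CDK2 at the entry into S phase, lay on opposite sides of BEC. Ccne1 read 6.16, 6.19 and 5.92 in cap LEC, 6.14, 6.26 and 6.21 in pre-col LEC, 6.27, 6.33 and 6.19 in col LEC and 6.42, 6.34 and 6.43 in BEC, so that each BEC array was above each LEC array. Its log2 difference from BEC was -0.21 ± 0.07 in the LEC mean (adjusted p = 0.0489, limma) and -0.31 ± 0.09 in cap LEC (adjusted p = 0.0254). Ccne2 was measured at 5.99, 6.20 and 6.68 in cap LEC, 6.73, 6.69 and 6.51 in pre-col LEC, 6.47, 6.24 and 6.75 in col LEC and 5.91, 5.98 and 5.91 in BEC, with each BEC array below each LEC array. It differed from BEC by 0.54 ± 0.13 in the LEC mean (adjusted p = 0.0117, limma) and by 0.56 ± 0.16 in col LEC (adjusted p = 0.0381). Among the LEC groups cap LEC had the lowest mean of both genes. Ccne2 was above the array median on 8 arrays, all of them LEC, and so passed the filter through the groups where it is high. Both rows were dim: the median over arrays was above 57.0% of the 5222 negative control rows for Ccne1 and above 59.1% for Ccne2, so no fold is given. The row that names Ccnd1, the other main D-type cyclin, together with Mir3962 read 9.27, 9.78 and 9.77 in cap LEC, 9.03, 9.42 and 9.48 in pre-col LEC, 9.16, 9.53 and 9.24 in col LEC and 9.49, 9.79 and 9.73 in BEC, with overlap between the groups. It was not tested, since the row does not belong to 1 gene.

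These cyclin E calls sat close to the threshold. Ccne1 in the LEC mean lost its call in 15 of 19 alternatives, among them leaving out any array but cap LEC 2, and reached an adjusted p of 0.145 by limma without BEC 3. In cap LEC it lost the call without cap LEC 3, BEC 1 or BEC 3 (0.0965, 0.0563 and 0.0666), with cyclic loess (0.104), with array weights (0.0782) and with only the groups compared (0.0983). Ccne2 in the LEC mean lost its call without BEC 3 only (adjusted p = 0.0544, limma), and in col LEC without 5 of the 6 arrays, col LEC 2 being the exception (up to 0.158) and with no filter on dim genes (0.0523).

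Among the CDK inhibitors, p27 separated blood from lymphatic endothelium. Cdkn1b (TC0600001595.mm.1), which encodes p27 and restrains cyclin E and CDK2, read 8.44, 8.43 and 8.61 in cap LEC, 8.49, 8.75 and 8.43 in pre-col LEC, 8.05, 8.72 and 8.52 in col LEC and 7.69, 7.72 and 7.67 in BEC. The 3 BEC arrays lay close together and below all 9 LEC arrays. The level was 1.74-fold higher in the LEC mean (0.80 ± 0.12, adjusted p = 0.000372, limma), 1.74-fold higher in cap LEC (0.80 ± 0.15, adjusted p = 0.00202) and 1.67-fold higher in col LEC (0.74 ± 0.15, adjusted p = 0.00403). These 3 calls held in every alternative tried. Among the LEC groups it was not called by limma, with differences of -0.06 ± 0.15 from cap LEC to col LEC and 0.06 ± 0.15 from cap LEC to pre-col LEC. Cdkn1a, which encodes the p53 target p21, had its highest group mean in BEC: 9.50, 9.66 and 9.75 in cap LEC, 9.91, 9.69 and 9.73 in pre-col LEC, 9.79, 9.53 and 10.14 in col LEC and 10.32, 9.82 and 10.15 in BEC. Its difference in the LEC mean was -0.35 ± 0.13 and missed the threshold (adjusted p = 0.071, limma). It passed without BEC 2 (0.0236), without col LEC 3 (0.024) and with cyclic loess (0.0391). In cap LEC the difference was -0.46 ± 0.16 (adjusted p = 0.0587, limma), which passed without BEC 2 (0.0201) and with cyclic loess (0.0338).

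**Figure D2:**
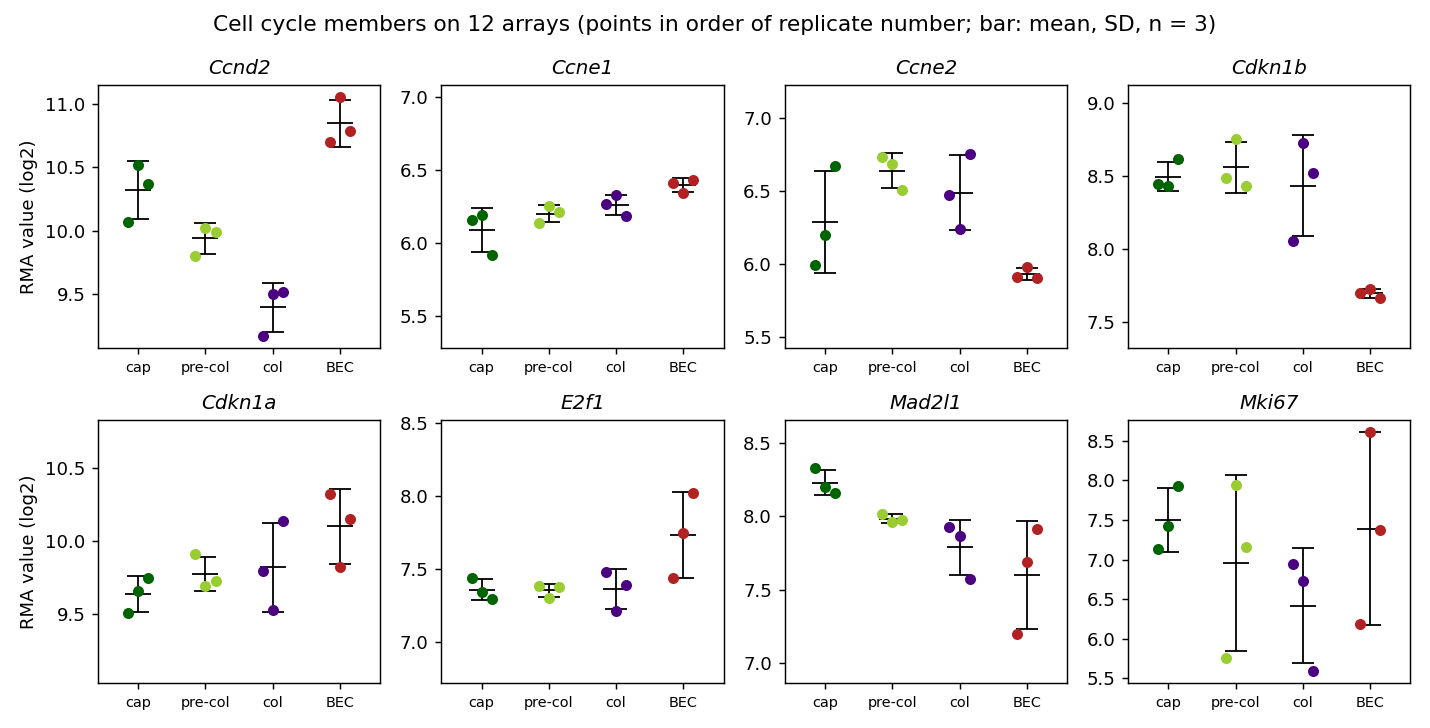
RMA value in log2 units of 8 members on each array, by group, with points in the order of the replicate number and bars for the mean and SD of 3 arrays; the axes differ between panels. Ccnd2 is highest in BEC, then cap LEC, pre-col LEC and col LEC, Ccne1 and E2f1 have their highest group mean and Cdkn1b and Ccne2 their lowest in BEC, and Mki67 spreads over more than 2 log2 units within BEC.

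E2f1, an E2F factor that activates replication genes, had values of 7.44, 7.34 and 7.30 in cap LEC, 7.38, 7.30 and 7.38 in pre-col LEC, 7.48, 7.22 and 7.39 in col LEC and 7.44, 7.74 and 8.02 in BEC. The LEC groups were level with each other, at means of 7.36, 7.35 and 7.36, and BEC 1 lay among them while BEC 2 and BEC 3 lay above. The median of the E2f1 row over arrays was above 76.3% of the negative control rows. The LEC mean was 1.3-fold lower than BEC (-0.38 ± 0.10, adjusted p = 0.0212, limma). This call was lost without BEC 3, where the difference was -0.23 (adjusted p = 0.128, limma), and without BEC 2 (0.0611). Without BEC 1 the difference in cap LEC and in col LEC was called as well (0.00532 and 0.00625). The row naming Foxm1, the forkhead factor of mitotic genes, together with Tex52 read 6.59, 7.04 and 6.50 in cap LEC, 6.84, 6.94 and 6.91 in pre-col LEC, 6.57, 6.68 and 6.50 in col LEC and 6.82, 7.18 and 7.22 in BEC, and was not tested.

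Over all members, 8 of 31 were called between the LEC mean and BEC, 5 higher and 3 lower in LEC, beside 22.7% of all genes tested, 12.1% higher and 10.6% lower. At an unadjusted p under 0.05 there were 11, beside 34.0% of all genes tested. In cap LEC against BEC 7 were called, 5 higher and 2 lower, beside 20.8% of all genes, 11.2% higher and 9.58% lower. In col LEC against BEC 3 were called, 2 higher and 1 lower, beside 16.3% of all genes, 8.34% higher and 7.95% lower. These shares of 25.8%, 22.6% and 9.68% of the members lie near or below the background of genes that separate the same groups. The 3 comparisons share the BEC arrays. BEC did not overlap LEC for 4 of the 38 members, lying above all 9 LEC arrays for Ccnd2 and Ccne1 and below them for Ccne2 and Cdkn1b. That is 10.5% of the members, against 12.7% of the 30731 genes with a row, and 22.7% of the genes tested were called in the LEC mean. The sum of the 10 mural markers was higher in every BEC array than in every LEC array, and its part in these differences was not tested.

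**Figure D3:**
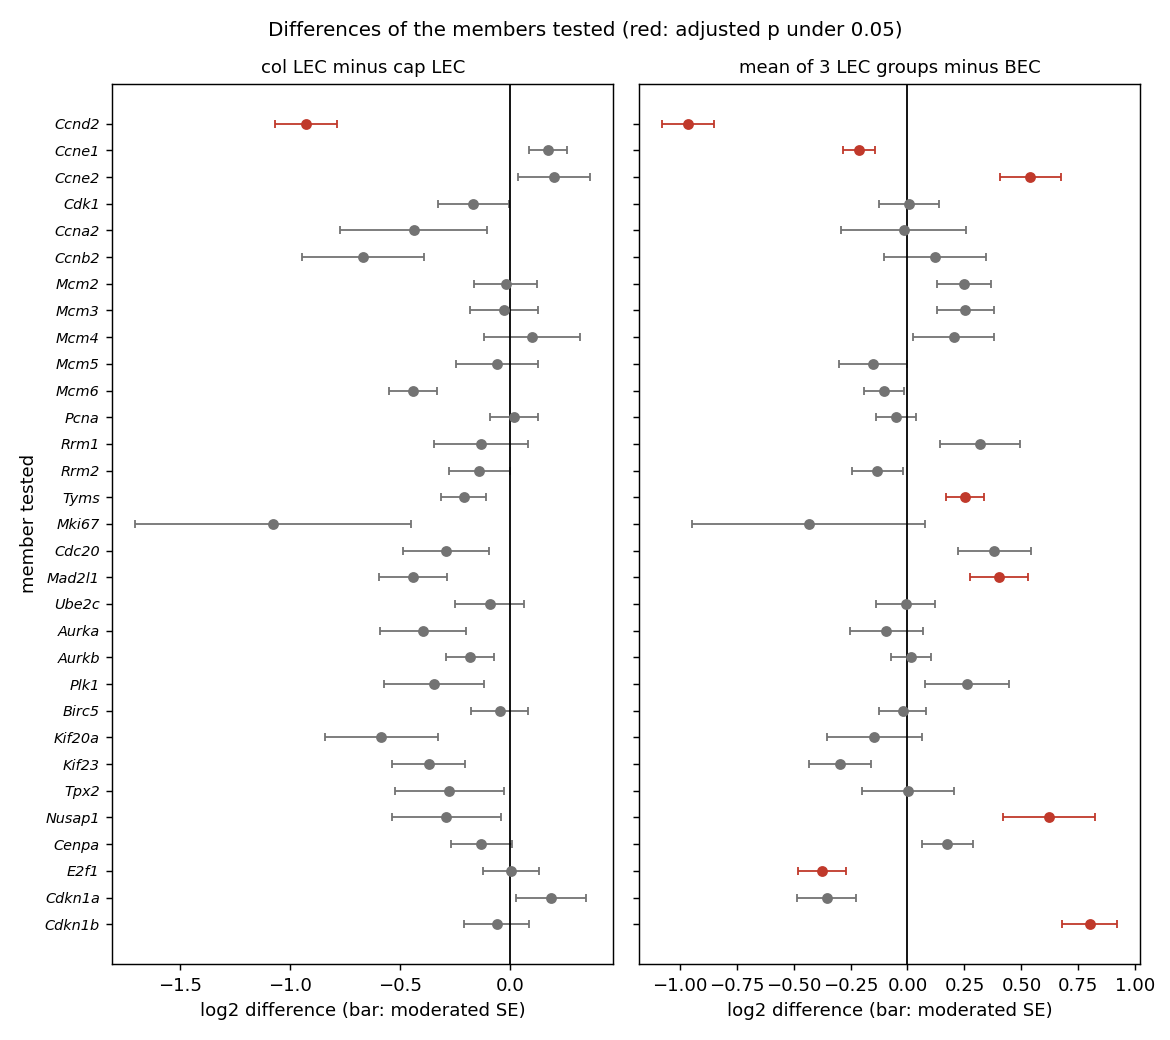
Log2 difference with its moderated SE for the 31 members tested, col LEC minus cap LEC on the left and the LEC mean minus BEC on the right, with red for an adjusted p under 0.05. On the left Ccnd2 alone is red and 25 of 31 points lie below 0; on the right 8 are red and the points lie on both sides of 0.

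CDK1 and the cyclins of S phase and mitosis were not called in any comparison. Ccna2, the cyclin A that acts in S phase and G2, read 6.91, 6.95 and 8.10 in cap LEC, 6.77, 7.32 and 6.50 in pre-col LEC, 6.95, 7.29 and 6.41 in col LEC and 6.72, 6.99 and 7.41 in BEC, and cap LEC 3 stood above the other 11 arrays. Ccnb2, a B-type cyclin of mitosis, read 7.69, 8.04 and 7.76 in cap LEC, 7.14, 7.22 and 7.57 in pre-col LEC, 6.94, 7.64 and 6.90 in col LEC and 6.73, 7.94 and 7.26 in BEC. The 3 cap LEC arrays were above all pre-col LEC and col LEC arrays, and BEC 2 lay among them. Its difference from cap LEC to col LEC was -0.67 ± 0.28 (adjusted p = 0.392, limma). Cdk1, the kinase that both partner, had group means of 6.36, 6.41, 6.19 and 6.31 in cap LEC, pre-col LEC, col LEC and BEC, closer together than the within-group SD of up to 0.26.

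For the replication licensing helicase, the MCM ring that is loaded at origins and unwinds DNA, none of 5 members tested was called in any comparison. Mcm6 came nearest, at 8.96, 8.79 and 8.70 in cap LEC, 8.33, 8.55 and 8.53 in pre-col LEC, 8.22, 8.57 and 8.34 in col LEC and 8.75, 8.61 and 8.60 in BEC. Each cap LEC array was above each pre-col LEC and col LEC array. Its difference was -0.44 ± 0.11 in col LEC (adjusted p = 0.0745, limma) and -0.35 ± 0.11 in pre-col LEC (adjusted p = 0.666). Mcm4 read 8.34, 8.45 and 8.24 in cap LEC, 8.37, 8.33 and 7.60 in pre-col LEC, 8.20, 8.34 and 8.78 in col LEC and 8.38, 8.11 and 7.79 in BEC, with the low value of pre-col LEC 3 and the high value of col LEC 3 setting its range. In the order cap LEC, pre-col LEC, col LEC and BEC, Mcm2 had group means of 8.55, 8.48, 8.53 and 8.27, Mcm3 of 9.09, 8.85, 9.07 and 8.75 and Mcm5 of 7.88, 7.70, 7.82 and 7.95. The row naming Mcm7 with Mir25 and Mir93 read 7.91, 7.97 and 8.17 in cap LEC, 8.19, 7.93 and 7.82 in pre-col LEC, 8.24, 8.02 and 8.04 in col LEC and 7.36, 7.76 and 7.72 in BEC, its 3 BEC arrays below all others, without a test.

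Of the DNA synthesis genes, Tyms was called. Tyms, the thymidylate synthase that makes a DNA precursor, read 9.17, 9.13 and 9.18 in cap LEC, 9.23, 9.12 and 9.06 in pre-col LEC, 8.91, 8.95 and 8.98 in col LEC and 8.82, 9.06 and 8.62 in BEC. It was 1.19-fold higher in the LEC mean than in BEC (0.25 ± 0.08, adjusted p = 0.0473, limma) and 1.26-fold higher in cap LEC (0.33 ± 0.10, adjusted p = 0.0379). BEC 2 overlapped the LEC arrays. The call in the LEC mean was lost in 16 of 20 alternatives, among them leaving out any 1 array but BEC 2, and its largest adjusted p was 0.278, with array weights. In cap LEC it was lost without any 1 array but BEC 2 (up to 0.119). Rrm1, the large subunit of ribonucleotide reductase, read 7.80, 7.96 and 8.46 in cap LEC, 7.88, 7.82 and 7.88 in pre-col LEC, 8.32, 7.79 and 7.71 in col LEC and 7.63, 8.02 and 7.27 in BEC, with single arrays standing apart in cap LEC and col LEC. Rrm2, the small subunit, had means of 6.34, 6.32, 6.20 and 6.42, and Pcna, the sliding clamp of DNA polymerase, of 10.53, 10.48, 10.55 and 10.57 in the same order of groups. The Pcna means spanned 0.094 log2 units, with an SD of 0.248 in col LEC.

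The S and M phase members, taken here as CDK1 and its cyclins with the chromosome, checkpoint, kinase, kinesin and centromere genes, have promoters known for CCAAT boxes, bound by NF-Y, and for CHR elements (TTTGAA), bound by the DREAM and B-MYB complexes, and replication genes are known for E2F sites. They are shown because these genes moved together from array to array, as the next paragraphs give. RefSeq promoters on GRCm38.p6 were matched by symbol for 33 of the 42 members, and motifs were searched on both strands in the 250 bases before the start. CCAAT was found in 26 of the 33 (78.8%), against 34.5% of the 27025 promoters of all genes. It was in 17 of 20 promoters of S and M phase members (85.0%) and in 8 of 9 of replication members (88.9%), so it did not set the S and M phase members apart. Its part in the shifts between arrays was not tested. TTTGAA was found in 7 of these 20 (35.0%), against 16.3% of all. Of the E2F motifs, TTTGGCGC was found in 2 of 9 replication members against 0.437% of all promoters, and TTTCGCGC in 2 of 9 against 0.255%. TTTCCCGC was in 1 of 9 against 0.929%, and TTTGGCGG in none of the 33 against 0.437%. The E box CACGTG was in 1 of 33, that of Tyms, against 6.05% of all. The 150 bases before the start are shown, 5′ to 3′ on the strand of the gene, for 3 mitotic members, 1 replication member and the inhibitor Cdkn1b, with matches on either strand in capitals. Ccnb2 lies at chr9:70421555-70421704 (minus strand), Cdc20 at chr4:118437344-118437493 (minus strand), Mki67 at chr7:135716380-135716529 (minus strand), Mcm6 at chr1:128359706-128359855 (minus strand) and Cdkn1b at chr6:134920251-134920400 (plus strand).
Ccnb2: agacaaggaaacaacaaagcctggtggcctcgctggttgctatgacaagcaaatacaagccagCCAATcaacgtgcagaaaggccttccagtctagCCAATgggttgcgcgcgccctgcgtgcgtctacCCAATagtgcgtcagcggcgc
Cdc20: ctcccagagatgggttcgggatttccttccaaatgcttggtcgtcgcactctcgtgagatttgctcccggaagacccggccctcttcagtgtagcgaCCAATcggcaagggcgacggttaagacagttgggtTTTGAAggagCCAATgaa
Mki67: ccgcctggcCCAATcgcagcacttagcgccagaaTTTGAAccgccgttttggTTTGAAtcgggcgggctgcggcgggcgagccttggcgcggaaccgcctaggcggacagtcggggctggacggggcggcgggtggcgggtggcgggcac
Mcm6: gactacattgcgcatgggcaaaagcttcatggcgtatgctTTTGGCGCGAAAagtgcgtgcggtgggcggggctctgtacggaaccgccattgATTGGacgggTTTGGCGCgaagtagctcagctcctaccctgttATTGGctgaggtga
Cdkn1b: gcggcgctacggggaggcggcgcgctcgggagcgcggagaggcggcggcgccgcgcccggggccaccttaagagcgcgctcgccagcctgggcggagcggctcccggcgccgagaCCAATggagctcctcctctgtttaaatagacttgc
In Ccnb2 the CCAAT matches begin 87, 54 and 21 bases before the start. In Cdc20 they begin at 53 and 8, with TTTGAA at 18, and in Mki67 at 188, 166 and 141, the first 2 outside the stretch shown. Mki67 also has TTTGAA at 116 and 98. In Mcm6 the CCAAT box is read as ATTGG at 57 and 14, and TTTGGCGC begins at 110 and 47. At 106 a TTTCGCGC match on the other strand overlaps the first of these. Cdkn1b has CCAAT at 161 and 35. A match describes these letters and shows no binding.

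Mki67, the proliferation antigen Ki-67 that coats mitotic chromosomes, had the widest spread of all members. It read 7.14, 7.42 and 7.93 in cap LEC, 5.76, 7.95 and 7.16 in pre-col LEC, 6.94, 6.73 and 5.59 in col LEC and 6.18, 8.62 and 7.37 in BEC. The cap LEC arrays lay above the col LEC arrays and all other pairs of groups overlapped, and the SD within a group reached 1.22 in BEC and 1.11 in pre-col LEC. The difference from cap LEC to col LEC, -1.08 ± 0.63, was the largest of the members in size and did not pass (adjusted p = 0.606, limma). Its median over the arrays was above that of 72.1% of the 5222 negative control rows. Top2a, the topoisomerase that untangles chromosomes and was too dim to test, ranged from 5.22 on BEC 1 to 6.21 on col LEC 1.

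Of the spindle checkpoint and the anaphase-promoting complex, Mad2l1 and Cdc20 were called. Mad2l1, the MAD2 protein that delays anaphase, read 8.33, 8.20 and 8.16 in cap LEC, 8.02, 7.96 and 7.97 in pre-col LEC, 7.93, 7.87 and 7.57 in col LEC and 7.20, 7.69 and 7.92 in BEC. The cap LEC arrays lay above the pre-col LEC arrays, which lay above the col LEC arrays, while BEC ran from below to within the range of col LEC. It was 1.55-fold higher in cap LEC than in BEC (0.63 ± 0.16, adjusted p = 0.0126, limma), a call that held in all 14 alternatives. In the LEC mean it was 1.32-fold higher (0.40 ± 0.13, adjusted p = 0.0402, limma), a call lost in 13 of 20 alternatives. Leaving out any 1 array but col LEC 3 and BEC 3 removed it, and without BEC 1 the difference was 0.20 (adjusted p = 0.178, limma). From cap LEC to col LEC its difference was -0.44 ± 0.16 (adjusted p = 0.276, limma). Cdc20, the activator of the anaphase-promoting complex, read 7.83, 7.86 and 8.28 in cap LEC, 7.52, 7.82 and 7.39 in pre-col LEC, 7.75, 7.88 and 7.46 in col LEC and 7.04, 7.79 and 7.29 in BEC. BEC 2 lay within the LEC range and BEC 1 and BEC 3 below the other 10 arrays. It was 1.53-fold higher in cap LEC than in BEC (0.62 ± 0.20, adjusted p = 0.0435, limma). The call was lost without any 1 array but BEC 2 (up to 0.173), and with array weights the difference was 0.39 (adjusted p = 0.22, limma). Without BEC 2 the LEC mean was called too (0.0182).

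Ube2c, the ubiquitin-conjugating enzyme of that complex, had group means of 6.98, 6.75, 6.88 and 6.88 in cap LEC, pre-col LEC, col LEC and BEC. The checkpoint kinase Bub1 and its relative Bub1b were too dim to test. Bub1 read 4.24, 4.69 and 5.02 in cap LEC and 4.14 to 4.37 on the 9 other arrays, with a median above that of 26.1% of the negative control rows, and Bub1b ranged from 5.61 to 6.21.

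None of the 4 mitotic kinases and passenger proteins was called. Aurka, the kinase of the spindle poles, read 7.10, 7.21 and 7.81 in cap LEC, 7.27, 6.92 and 6.95 in pre-col LEC, 7.0, 6.96 and 6.98 in col LEC and 6.88, 7.23 and 7.56 in BEC, and cap LEC 3 was the highest of the 12. Plk1, a kinase of mitotic entry and exit, read 7.43, 7.89 and 7.78 in cap LEC, 7.62, 7.62 and 7.92 in pre-col LEC, 7.25, 7.85 and 6.97 in col LEC and 6.91, 7.54 and 7.54 in BEC, lowest on BEC 1 and col LEC 3. Aurkb, the kinase of the passenger complex, had group means of 6.48, 6.26, 6.29 and 6.33, and Birc5, its partner survivin, of 6.82, 6.77, 6.77 and 6.81, in the order cap LEC, pre-col LEC, col LEC and BEC.

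Among kinesins and spindle proteins, Nusap1 was called. This microtubule-binding spindle protein read 6.69, 6.34 and 7.23 in cap LEC, 6.63, 6.51 and 6.34 in pre-col LEC, 6.55, 6.75 and 6.09 in col LEC and 5.62, 6.40 and 5.83 in BEC. It was higher than in BEC by 0.80 ± 0.25 log2 units in cap LEC (adjusted p = 0.0381, limma) and by 0.62 ± 0.20 in the LEC mean (adjusted p = 0.0451). Its row was dim too, with a median above 62.1% of the negative control rows. It was above the array median on 9 arrays, BEC 2 being the only BEC array among them. It thus passed the filter through the groups where it is high. With no filter on dim genes both calls were lost (adjusted p = 0.0529 in cap LEC and 0.0632 in the LEC mean, limma). BEC 2 overlapped the LEC arrays. The call in the LEC mean was lost in 12 of 19 alternatives, among them leaving out any 1 array but cap LEC 2, col LEC 3 and BEC 2, and array weights, with a difference of 0.34 (adjusted p = 0.39, limma). In cap LEC it was lost without cap LEC 1, cap LEC 3, BEC 1 or BEC 3 (up to 0.158), and with array weights the difference was 0.43 (adjusted p = 0.3, limma). Kif20a, a kinesin of cytokinesis, read 6.54, 7.29 and 6.97 in cap LEC, 6.22, 6.34 and 6.78 in pre-col LEC, 6.25, 6.44 and 6.34 in col LEC and 6.12, 7.20 and 6.84 in BEC, with a difference from cap LEC to col LEC of -0.59 ± 0.26 (adjusted p = 0.437, limma). Kif23, another kinesin of cytokinesis, differed by -0.37 ± 0.17 in the same comparison (adjusted p = 0.459, limma). Without BEC 1, which is its lowest BEC array, Kif23 was called lower than BEC in the LEC mean (-0.50, adjusted p = 0.0091) and in col LEC (-0.65, adjusted p = 0.00633). Tpx2, which activates Aurora A on the spindle, had means of 6.94, 6.76, 6.66 and 6.78 in the order above.

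Too dim to test, the kinesin Kif11, which pushes the spindle poles apart, read 6.21 on BEC 2 and 4.75 to 5.36 on the other 11 arrays, and Prc1, which bundles midzone microtubules, ranged from 5.56 to 6.29. Of the centromere members, Cenpa, the histone that marks the centromere, read 7.60, 7.71 and 7.85 in cap LEC, 7.73, 7.43 and 7.55 in pre-col LEC, 7.78, 7.51 and 7.47 in col LEC and 7.16, 7.54 and 7.66 in BEC, lowest on BEC 1, and was not called. The kinetochore proteins Cenpe, at 4.43 to 4.75, and Cenpf, at 5.74 to 6.10, were too dim to test and spanned less than 0.4 log2 units each.

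The S and M phase members, 23 of which have a row, shifted together on single arrays. Of these 23, 18 were highest within their group on cap LEC 3, against 31.6% of all genes. On BEC 1 22 were lowest, against 50.6% of all genes, and on col LEC 3 19 were lowest, against 30.7%. The median deviation of the 23 from their group mean was 0.203 on cap LEC 3, 0.196 on BEC 2, -0.208 on col LEC 3 and -0.321 on BEC 1. Of 64 other mitosis genes, from a list that shares no gene with the members, 38 were highest on cap LEC 3 (59.4%). On BEC 1, 50 were lowest (78.1%). The median deviations were 0.063 on cap LEC 3 and -0.165 on BEC 1. The other shifts were weaker in these 64: 30 were lowest on col LEC 3 (46.9%), with a median deviation of -0.049. On BEC 2, 29 were highest (45.3%, against 27.6% of all genes), fewer than the 31 on BEC 3. The median deviation on BEC 2 was 0.061. The median of the 9 replication members was -0.002 on col LEC 3, -0.014 on BEC 1 and 0.168 on BEC 2. Of 38 other replication genes 27 were lowest on BEC 1 (71.1%), with a median deviation of -0.112, and 15 highest on cap LEC 3 (39.5%). BEC 1 and BEC 3 also had the lowest array weights by limma, 0.472 and 0.351.

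**Figure D4:**
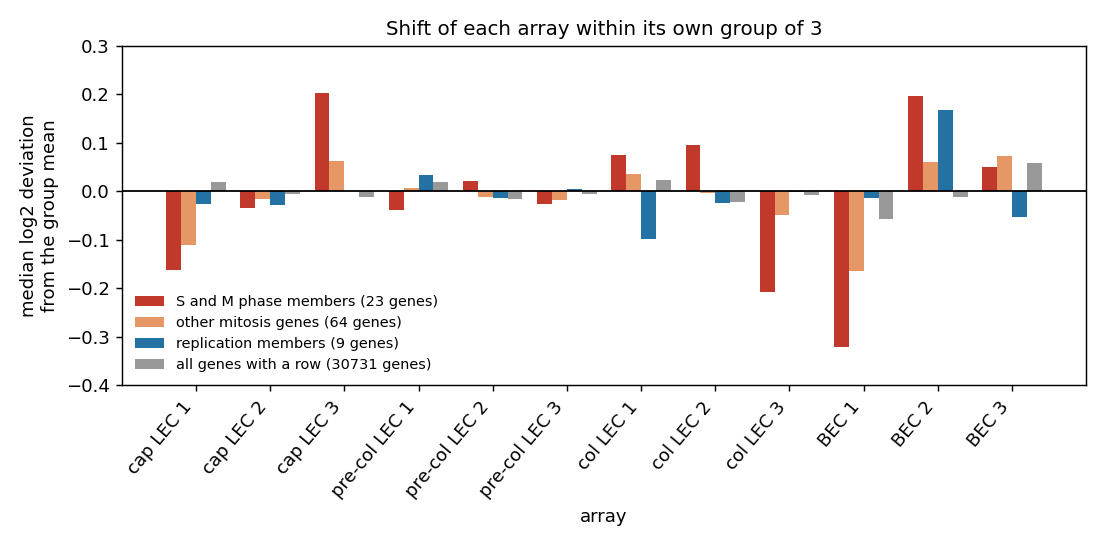
Median over genes of the deviation of each array from the mean of its group of 3, in log2 units, for 23 S and M phase members, 64 other mitosis genes, 9 replication members and all 30731 genes with a row. The S and M phase bars reach 0.203 on cap LEC 3 and 0.196 on BEC 2 and go down to -0.208 on col LEC 3 and -0.321 on BEC 1.

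Counted by sign alone, with dim genes kept and no test, the members leaned to cap LEC. From cap LEC to col LEC 29 of 38 members were below 0, against 40.0% of all genes, with a median of -0.132 against 0.028. The S and M phase members gave 20 of 23 below 0 and a median of -0.277, which was -0.071, with 17 of 23 below 0, without cap LEC 3, and -0.149 without col LEC 3. From cap LEC to pre-col LEC 29 of 38 were below 0 as well, among them all 9 replication members, against 44.4% of all genes. Other replication genes, counted without dim genes, did not share this lean: of 33 tested, 16 were below and 17 above 0, with a median of 0.008. From cap LEC to col LEC 20 of the 33 were below 0. Of 31 other mitosis genes tested, 25 were below 0 from cap LEC to col LEC and 18 from cap LEC to pre-col LEC. Of all 19688 genes tested, 8425 and 9742 were below 0 in these 2 comparisons. Cap LEC had the highest mean of the 4 groups for 20 of the 38 members, a count that was not taken over all genes and so has no background. In the LEC mean against BEC the S and M phase members had no stable side, with 13 of 23 above 0. The count was 7 without BEC 1, 8 without cap LEC 3 and 19 without BEC 2. In cap LEC against BEC all tested S and M phase members but Kif23 were above 0. Over all members, 23 of 31 tested were above 0 there, beside 9133 of 19688 genes. In col LEC against BEC 13 of 31 were, beside 9743 of 19688 genes. BEC 1, where 22 of the 23 S and M phase members were lowest in their group, is part of these comparisons.

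Of the wider cell cycle machinery, a list of 147 further genes in replication, mitosis and G1 control gave 102 tested. By limma none was called between col LEC and cap LEC, pre-col LEC and cap LEC, or col LEC and pre-col LEC. At an unadjusted p under 0.05 there were 8, 6 and 6, beside 10.5%, 6.41% and 5.87% of all genes tested. The smallest p values from cap LEC to col LEC were those of Myc (0.32 ± 0.08, adjusted p = 0.0961) and Prim1 (-0.59 ± 0.16, adjusted p = 0.103). From cap LEC to pre-col LEC they were those of Gins4 (-0.58 ± 0.16, adjusted p = 0.553) and Prim1 (-0.50 ± 0.16, adjusted p = 0.67), and from pre-col LEC to col LEC those of Myc (0.37 ± 0.08, adjusted p = 0.131) and Ncapg2 (-0.64 ± 0.17, adjusted p = 0.28). Of the further genes named here, array weights called Myc, Prim1 and Cdkn1c between col LEC and cap LEC (adjusted p = 0.0149, 0.0394 and 0.0249, limma). Rbl1 was called lower in col LEC than in cap LEC without col LEC 3 (-1.32, adjusted p = 0.0128). Between the LEC mean and BEC 21 were called, 14 higher and 7 lower, which included 13 of 38 genes of G1 control and exit, 5 of 33 of replication and 3 of 31 of mitosis, beside the 22.7% of all genes. In cap LEC against BEC 17 were called (16.7%, beside 20.8% of all genes), 13 higher and 4 lower. In col LEC against BEC 17 were called as well (16.7%, beside 16.3% of all genes), 10 higher and 7 lower.

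The kinases that D-type cyclins activate were higher in LEC, opposite in direction to Ccnd2. Cdk6 read 9.39, 9.40 and 9.61 in cap LEC, 9.21, 9.46 and 9.30 in pre-col LEC, 9.50, 9.27 and 9.59 in col LEC and 8.07, 8.31 and 8.31 in BEC, all LEC arrays above all BEC arrays, and was 1.18 ± 0.09 higher in the LEC mean (log2; adjusted p = 1.03e-06, limma). Cdk4 read 9.98, 10.24 and 10.04 in cap LEC, 9.81, 10.02 and 9.96 in pre-col LEC, 9.96, 10.05 and 9.97 in col LEC and 8.88, 9.73 and 9.34 in BEC, with the same separation and a difference of 0.69 ± 0.14, adjusted p = 0.00286. Its call in col LEC was lost without col LEC 2 (adjusted p = 0.0516, limma). The repressor E2f8 read 7.87, 7.77 and 7.72 in cap LEC, 7.60, 7.92 and 7.79 in pre-col LEC, 7.09, 7.63 and 7.73 in col LEC and 6.47, 6.66 and 6.62 in BEC, a difference of 1.10 ± 0.12, adjusted p = 2.69e-05 (limma). Smc4, a condensin subunit, read 9.06, 9.22 and 9.17 in cap LEC, 9.18, 9.03 and 9.06 in pre-col LEC, 9.18, 9.04 and 9.15 in col LEC and 8.21, 8.16 and 7.76 in BEC, a difference of 1.08 ± 0.09, adjusted p = 2.76e-06. These 4 genes separated LEC from BEC without overlap, and their differences in cap LEC and in col LEC lay between 0.68 and 1.23.

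Called lower in LEC were the inhibitor Cdkn1c, the pocket proteins Rbl1 and Rb1, E2f3, the replication genes Gmnn and Pola2, and Wee1. Cdkn1c, which encodes p57, read 8.79, 8.74 and 8.69 in cap LEC, 8.89, 8.82 and 8.85 in pre-col LEC, 9.08, 9.06 and 8.98 in col LEC and 9.26, 9.35 and 9.60 in BEC with each BEC array above each LEC array. It differed by -0.53 ± 0.07, adjusted p = 0.000169 in the LEC mean and by -0.66 ± 0.09, adjusted p = 0.00016 in cap LEC (limma). Rbl1, which encodes p107, read 7.93, 7.06 and 7.24 in cap LEC, 7.04, 7.26 and 7.22 in pre-col LEC, 6.06, 6.12 and 7.61 in col LEC and 8.17, 7.90 and 8.19 in BEC, with col LEC 1 and col LEC 2 below all other arrays and col LEC 3 above most LEC arrays. Its difference was -1.03 ± 0.28, adjusted p = 0.0208 in the LEC mean, lost without BEC 1 or BEC 3 and with array weights (0.132), and -1.49 ± 0.35, adjusted p = 0.0107 in col LEC, lost with array weights (0.0896; limma). E2f3, an activating E2F, differed by -0.46 ± 0.11, adjusted p = 0.00842 in cap LEC and by -0.47 ± 0.11, adjusted p = 0.00912 in col LEC, and Rb1 by -0.44 ± 0.11, adjusted p = 0.0105 in cap LEC, a call lost when its 3 rows were averaged (adjusted p = 0.203). Gmnn, the inhibitor of origin licensing, differed by -0.42 ± 0.12, adjusted p = 0.0201 in the LEC mean, lost without BEC 2 or BEC 3, and by -0.51 ± 0.14, adjusted p = 0.027 in col LEC, lost without col LEC 1, col LEC 2, BEC 2 or BEC 3. Cyclic loess removed both calls (0.0606 and 0.0607). Pola2, a subunit of DNA polymerase alpha, differed by -0.41 ± 0.09, adjusted p = 0.00577 in the LEC mean and by -0.40 ± 0.11, adjusted p = 0.0231 in cap LEC, the second lost without cap LEC 1 or BEC 2 and with only the groups compared. Wee1, the kinase that restrains CDK1, differed by -0.71 ± 0.21, adjusted p = 0.0419 in col LEC, a call lost without any 1 array but col LEC 2.

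**Figure D5:**
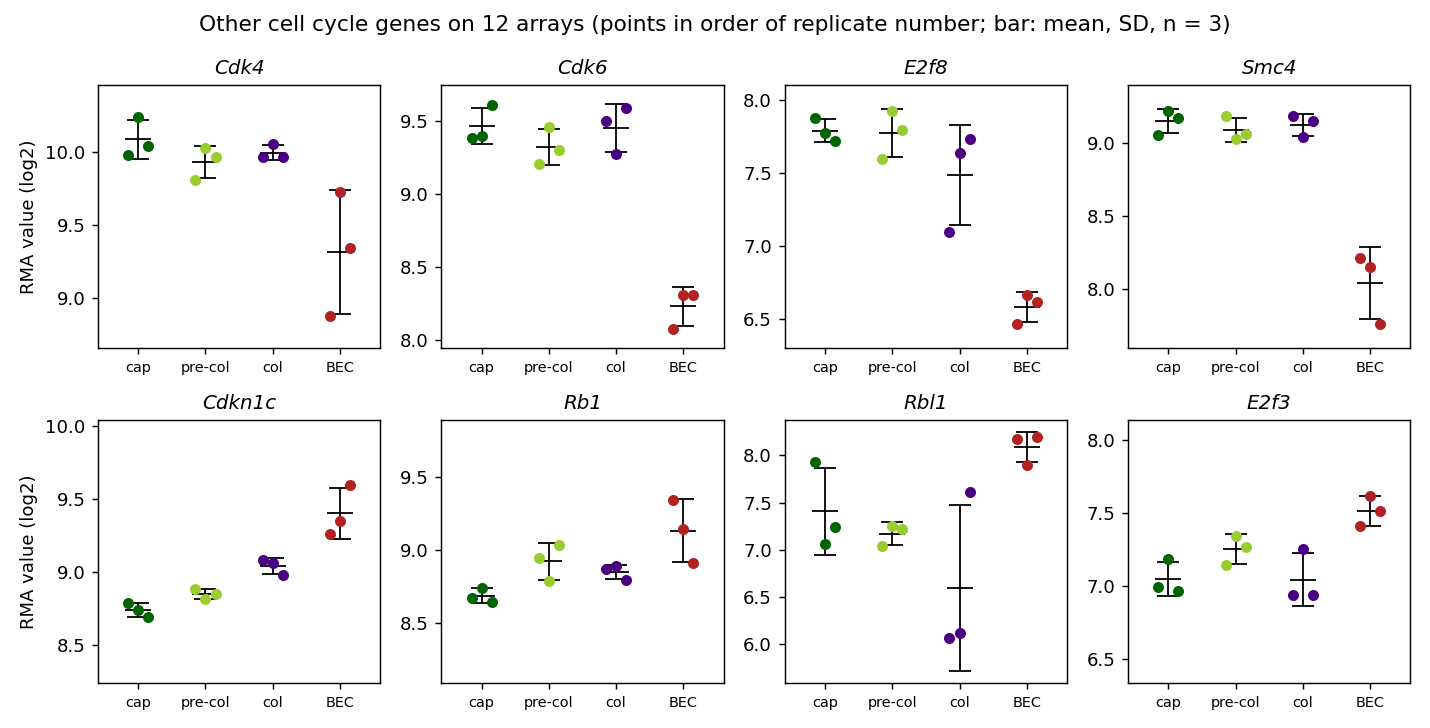
RMA value in log2 units of 8 further cell cycle genes on each array, by group, with points in the order of the replicate number and bars for the mean and SD of 3 arrays; the axes differ between panels. Cdk4, Cdk6, E2f8 and Smc4 lie above BEC on all 9 LEC arrays, Cdkn1c lies below BEC on all 9, and in Rbl1 col LEC 1 and col LEC 2 lie apart from col LEC 3.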

How the data were processed

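The table holds log2 values deposited by the authors for 12 whole-transcript arrays, made with RMA per the submitters' processing notes; the software was not given in the sources used here. RMA's background correction and normalization assume that arrays share 1 overall distribution, and amplification of 500 pg of RNA limits the precision, as does the number of arrays. Of 72688 rows, 31288 name 1 gene in the platform annotation, with 1135 updated to current symbols through RefSeq; the brightest row of each of 30731 genes was used. Genes above their array's median on at least 3 arrays (19688) were fitted over all 12 arrays with limma 3.58.1 in R 4.3.3 (lmFit and eBayes), without blocks, and p-values were adjusted by Benjamini-Hochberg over all of them at a threshold of 0.05. The script was tested on simulated data. Tables and plots used Python 3.11.15, pandas 2.3.3 and matplotlib 3.10.9. Alternatives were another filter and none, cyclic loess, the mean of a gene's rows, array weights, a replicate block, a variance trend, only the groups compared, and leaving out each array; leaving out arrays for the counts of signs was added after seeing the data. Members and lists were chosen with earlier results of these data known. Values on every array are given for called members and for the 2 tested members of each role with the widest range of group means; other cell cycle genes are named by size of difference, at most 4 called in each direction and comparison, or by the 2 smallest p where none was called. Dim members and rows of several genes were left out of the tests. Promoter coordinates are RefSeq's on GRCm38.p6, the first promoter listed for a gene.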

Additional observations from a re-analysis of the deposited data

How the results depend on the processing

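Across 2742 alternatives to 186 results of members, 2623 kept their side of the threshold, 97 lost it, 22 gained it and 0 changed direction while called. The calls of Ccnd2 in col LEC against cap LEC and against BEC and in the LEC mean, of Cdkn1b in its 3 BEC comparisons and of Mad2l1 in cap LEC against BEC held in each alternative run on them; for the other called members some alternative removed the call. With array weights, 3 members were called between col LEC and cap LEC (Ccnd2, Mad2l1 and Mcm6, with 797 genes in all against 325), 5 between col LEC and BEC (Ccnd2, Ccne2, Cdkn1b, E2f1 and Kif23), 4 between cap LEC and BEC and 4 between the LEC mean and BEC. In the last comparison 4 were called with no filter on dim genes and 5 with genes above the median on all 12 arrays. With only the groups compared in the fit, 3 were called between cap LEC and BEC. Leaving out 1 array at a time gave 3 to 7 called members for the LEC mean against BEC, 3 to 8 for cap LEC against BEC, 2 to 4 for col LEC against BEC, 1 each time for col LEC against cap LEC and 0 for the other comparisons. Same-numbered arrays correlated at -0.093 to 0.208 in their deviations over 18 pairs, 7 of them over 0.1, and most were above 0. Pairs of arrays with different numbers ran from -0.144 to 0.175, and most were below 0. The deviations of the 3 arrays of a group sum to 0 for each gene. The signs of these pairs are therefore not independent of those of same-numbered pairs. The labels do not say whether equal numbers share an animal or day, so the main fit used no block and pairing cannot be told. With the replicate number as a block, 1 member (Ccnd2, adjusted p = 0.0318 by limma) was called between col LEC and pre-col LEC. In the same fit 5 were called between the LEC mean and BEC, Cdkn1a among them (0.0476, and 0.0396 in cap LEC). Of the further genes named, the block called Prim1 between col LEC and cap LEC (0.0319) and Ncapg2 between col LEC and pre-col LEC (0.0327). Cyclic loess moved the median of all genes by little, from 0.025 to 0.001 between col LEC and cap LEC. The causes of these changes were not tested. With 3 arrays a group, the within-group SD of Mki67, Ccna2 and Ccnb2 limits which differences could pass. Members near the level of the negative controls may read too small a difference. Members given with a fold also lay within the range of these controls. Their median over arrays was above 81.9% of the negative control rows for Cdc20 and 84.8% for Mad2l1. It was above 89.4% for Cdkn1b and 94.2% for Tyms.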
